A study of Mus musculus with 2 samples.

Results

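The transcripts described here encode the SR proteins, the heterogeneous nuclear ribonucleoproteins (hnRNPs) and the U2-associated splicing factors of mouse B cell progenitors. They were chosen by name from the RefSeq transcripts in the expression table: every protein-coding transcript (an NM_ identifier) of a gene whose symbol begins with Srsf, Hnrnp, Sf3a, Sf3b or U2af, together with Ptbp1, Ptbp2, Ptbp3, Tra2a and Tra2b. This gave 49 genes with 82 transcripts, out of 20246 protein-coding genes with 26712 named transcripts. The members were 11 SR protein genes, 2 Tra2 genes, 21 hnRNP genes, 3 Ptbp genes, 3 U2af genes and 9 genes of the SF3A and SF3B complexes.

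The study sequenced total RNA from 1 library of Ebf1-/- pre-pro-B cells and 1 library of Rag2-/- pro-B cells, both on the C57BL/6 background and both grown on OP-9 stromal cells. Pre-pro-B cells lacking Ebf1, a transcription factor needed to enter the B lineage, came from livers of female embryos and received Il-7 at 5 ng/mL, Scf at 10 ng/mL and Flt3l at 10 ng/mL. Pro-B cells lacking Rag2, an enzyme subunit that starts antibody gene rearrangement, came from bone marrow of adult males and received Il-7 alone at 5 ng/mL. Genotype, sex, age, tissue and cytokines therefore differ together between the libraries and cannot be told apart. With 1 library per population there was no replicate error and no test, so each value below is a level in a library and each fold compares these libraries. In bulk RNA, fewer cells of a type and less RNA per cell cannot be told apart.

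Splicing joins the exons of a pre-mRNA after the spliceosome has recognised the ends of each intron. SR proteins bind enhancer sequences in exons and generally favour inclusion, whereas many hnRNPs, among them the polypyrimidine tract binding proteins (Ptbp), bind silencer sequences and favour skipping. U2af recognises the 3′ splice site, and the SF3A and SF3B subunits of the U2 snRNP hold the branch point. Several of these genes make a part of their own mRNA with an alternative exon that stops translation, which lowers the amount of protein. In blood cells, SF3B1, U2AF1 and SRSF2 are known as genes mutated in leukemia and myelodysplasia, and Hnrnpll is known for setting the exon content of the CD45 mRNA in lymphocytes.

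Sequences are shown because the share of transcripts that carry them is described further on. Each comes from an exon of the mm9 genome (GENCODE vM1 annotation) given 5′ to 3′ on the strand of its gene. U2af1 has a pair of exons of 67 bases that replace each other, at chr17:31789447-31789513 and chr17:31788591-31788657 on the minus strand, and capitals mark the 23 positions at which they differ (65.7% of positions were identical).
U2af1 upstream exon: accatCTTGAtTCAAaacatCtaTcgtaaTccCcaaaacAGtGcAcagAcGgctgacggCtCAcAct
U2af1 downstream exon: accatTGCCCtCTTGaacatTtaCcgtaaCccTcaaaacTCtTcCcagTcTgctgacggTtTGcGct
Ptbp1 has a coding exon of 78 bases at chr10:79322862-79322939 on the plus strand, exon 8 of the annotated transcript, whose length equals the difference between its 2 RefSeq transcripts (2933 and 2855 bases).
Ptbp1 alternative exon: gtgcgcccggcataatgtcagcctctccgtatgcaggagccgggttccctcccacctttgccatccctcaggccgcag
Srsf3 has an exon of 456 bases at chr17:29176399-29176854 on the plus strand that holds a stop codon. The stretch from the start of that exon to the stop codon, at chr17:29176399-29176432, is given with the stop codon in capitals.
Srsf3 exon start: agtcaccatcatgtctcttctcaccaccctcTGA
Hnrnpd, an AU-rich mRNA binding protein, has 2 coding cassette exons on the minus strand, and the shorter one of 57 bases lies at chr5:100405553-100405609.
Hnrnpd exon 2: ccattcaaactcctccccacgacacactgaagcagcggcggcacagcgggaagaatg

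As a set, the members were among the more highly expressed genes of both libraries and were slightly higher in pro-B cells. Levels are given as FPKM (fragments scaled to the length of the transcript and to the number of mapped fragments), summed over the NM_ transcripts of a gene, and where a pair of values is given the pre-pro-B value comes before the pro-B value. All members together summed to an FPKM of 5281 among pre-pro-B and 6253 among pro-B cells, or 1.70% and 1.85% of the FPKM of all protein-coding transcripts. Their median level was 68.8 among pre-pro-B and 83.8 among pro-B cells, against 13.0 and 11.7 over the 10535 genes that reached an FPKM of 1 in at least 1 library. Of the 49 members, 47 passed that minimum. The remaining ones were Srsf12, listed at 0 in both libraries, and Hnrnpa1l2-ps2, a gene named as a pseudogene in RefSeq, listed at 0.120 and 0.0952. All 82 transcripts had an estimate of status OK in both libraries, 6 of them were listed at 0 in both, and 1, Hnrnpf NM_001166428, was at 0.429 among pre-pro-B cells and at 0 among pro-B cells.

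**Figure D1:**
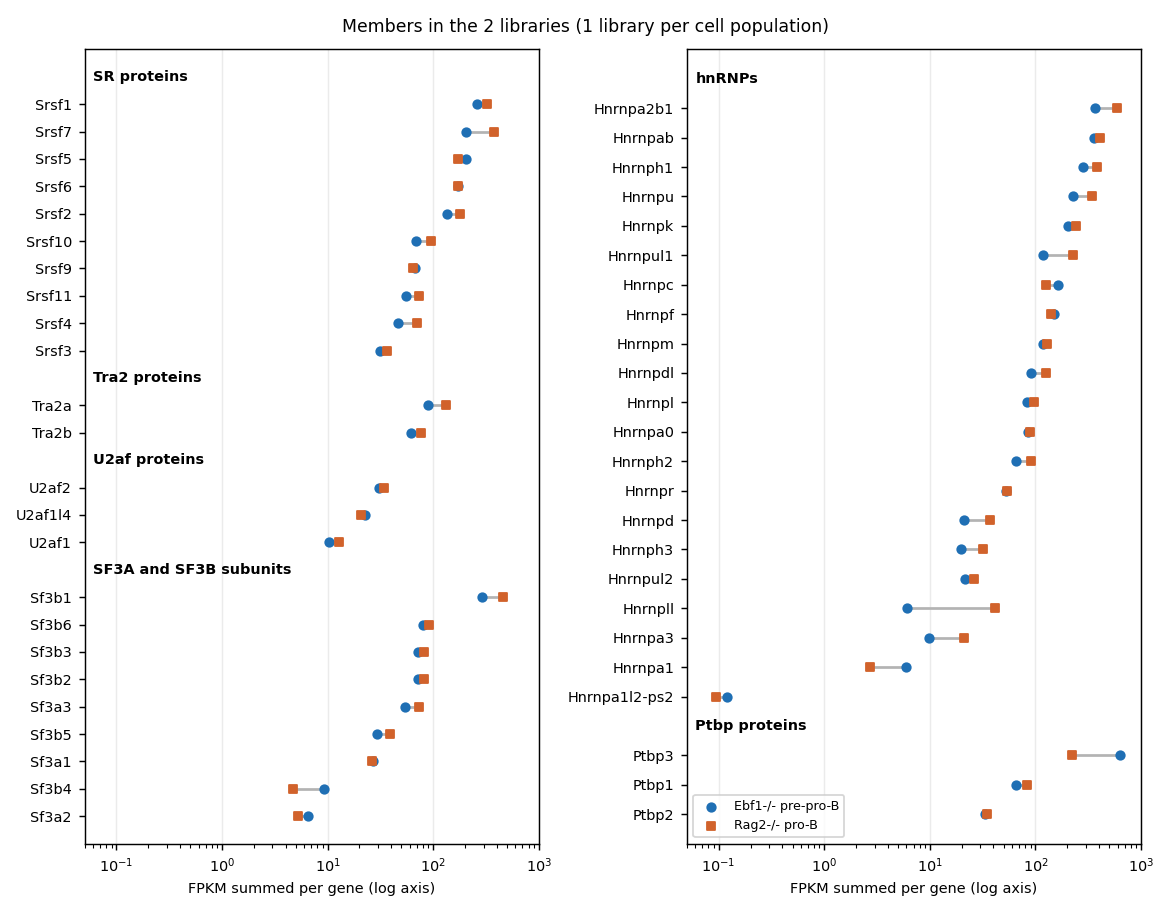
FPKM summed per gene on a log axis for every member above 0, with a blue circle for the Ebf1-/- pre-pro-B library and an orange square for the Rag2-/- pro-B library (1 library each). Most pairs lie close together, the widest gaps are those of Hnrnpll (6.06 and 41.5) and Ptbp3 (638 and 221), and Srsf12, at 0 in both, is left out.

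Changes between the libraries are given as the log2 change of FPKM + 1, pro-B over pre-pro-B, and a gene is counted as apart when this change is at least 2-fold. By that rule 2 of 47 members (4.26%) were higher in pro-B cells, Hnrnpll and Hnrnpa3, while 12.2% of all genes tested were. A single member (2.13%), Ptbp3, was lower in pro-B cells, while 19.1% of all genes were. Both shares of members lie below those of all genes, whose levels were mostly lower. The counts of genes here, and of transcripts and leading transcripts further on, were not repeated against genes of like level. Hnrnpa3 lay just past the limit with a log2 change of 1.04. Just short of it were Hnrnpul1 with 0.94, Hnrnpa1 with -0.91, Srsf7 with 0.86 and Sf3b4 with -0.84. Folds given beside levels are ratios of FPKM without the added 1. On that measure Hnrnpa1 was 2.20-fold lower in pro-B cells, and it was counted as lower when 0.1 rather than 1 was added. When FPKM were rescaled to TPM (each library scaled to the same total over all listed transcripts), 1 member was higher (Hnrnpll) and 3 were lower (Hnrnpa1, Ptbp3 and Sf3b4). Of 11435 genes that passed in TPM, 1469 were higher and 2721 lower. TPM values are larger numbers than FPKM here, while the added 1 and the minimum of 1 were kept. The TPM counts thus differ in more than scaling. With pro-B values divided by the median ratio of all genes, 3 were higher (Hnrnpa3, Hnrnpll and Hnrnpul1) and 1 was lower (Ptbp3). Of 10564 genes, 1415 were higher and 1895 lower there. After division by the median ratio of genes at an FPKM of 50 or more, Hnrnpa1 (-0.98) and Sf3b4 (-0.92) were not counted as lower. Hnrnpll and Ptbp3 were thus apart in the same direction under each of these scalings.

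Below the 2-fold limit, most members lay to the pro-B side. The median log2 change over the 47 members was 0.28, and 36 of them (76.6%) were above 0, whereas the median over all genes tested was -0.14 and 42.6% were above 0. Levels differ between these sets, so the same values were taken over genes that reached an FPKM of 50 in a library. There, the median log2 change was 0.30 for 32 members (81.3% above 0) and 0.10 for all 1904 genes (54.2% above 0). The members' median stayed above 0 under each scaling, at 0.19 in TPM, 0.37 after division by the median ratio of all genes and 0.19 after division by the median ratio of genes at an FPKM of 50 or more. Under these scalings 33, 40 and 33 of the 47 members were above 0, and the share of all genes above 0 was not taken there. These shifts move the median of all genes as well, to -0.25, -0.05 and -0.23, so the distance of the members from all genes changes little.

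**Figure D2:**
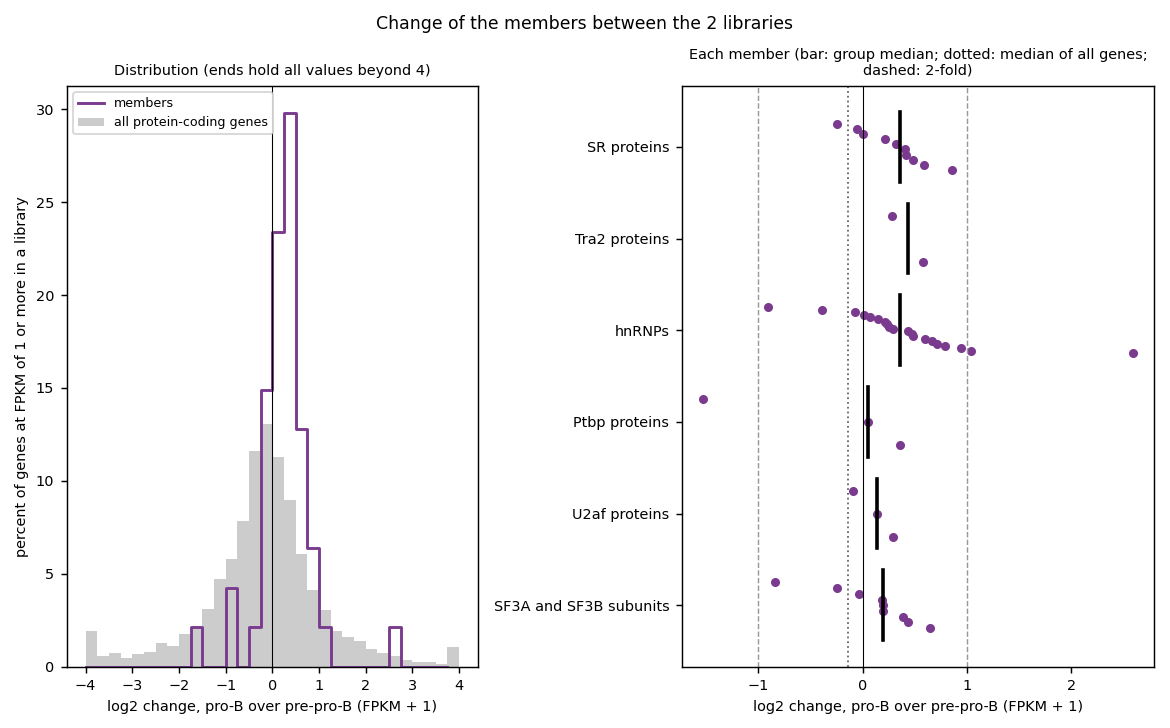
Left, the percent of genes in each step of log2 change (FPKM + 1, pro-B over pre-pro-B) for all protein-coding genes tested (grey bars) and for the members (purple line). Right, each member as a point by family, with a black bar for the family median, a dotted line for the median of all genes (-0.14) and dashed lines at 2-fold. Members gather between 0 and 0.5, with Hnrnpll (2.59) and Ptbp3 (-1.53) standing outside.

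Among the SR proteins, 7 of the 10 genes tested lay above 0, with a median log2 change of 0.36 (0.27 in TPM), and none was 2-fold apart. Their summed FPKM was 1246 among pre-pro-B and 1562 among pro-B cells. Srsf7, an SR protein with a zinc knuckle that also takes part in mRNA export, had an FPKM of 206 and 373, which is the widest gap in the family (1.81-fold). Srsf4 had 46.4 and 70.3, Srsf10, a splicing repressor when dephosphorylated, had 68.8 and 96.3, and Srsf11 had 54.7 and 73.4. Srsf1, the founding member of the family, was at 259 and 323. Srsf2, which binds exonic enhancers and is a target of mutation in myelodysplasia, was at 136 and 180. These genes were all higher in the pro-B library by less than 2-fold.

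Srsf5, Srsf9 and Srsf6 did not share that direction. Srsf5 had an FPKM of 206 among pre-pro-B and 173 among pro-B cells (log2 change -0.25, but 0.25 when its most abundant transcript stands for the gene), Srsf9 had 67.0 and 64.5, and Srsf6 had 172 in each. The related activators Tra2a and Tra2b, which bind GAA-rich enhancers, were at 88.7 and 133 and at 62.3 and 76.0. Both were higher in pro-B cells, Tra2a by 1.502-fold.

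Srsf3, the smallest SR protein, was at an FPKM of 31.4 and 36.5 by its protein-coding transcript NM_013663. The table also holds its transcript NR_036613, which is 456 bases longer, and the exon printed above, with its stop codon, has exactly that length. NR_036613 was at 95.8 among pre-pro-B and 139 among pro-B cells. It thus made up 75.3% and 79.1% of the FPKM of the gene when both kinds of transcript were added, and in neither library was the protein-coding form the larger one. The limits that Cuffdiff gives for NM_013663 reach 0 in both libraries (upper limits 96.8 and 129). Of the 32-base stretches of the annotated Srsf3 transcript without that exon, 50.2% occurred elsewhere in mm9. By the count described below for Hnrnpa1, Srsf3 had 3 copies. Reads from such stretches can be placed at several positions, and the part this plays in the Srsf3 shares was not tested. Non-coding (NR_) transcripts were listed for 2 further SR genes, without a stop codon exon matched to them here. Srsf7 NR_036615 was at 42.7 and 29.5, or 17.2% and 7.32% of its gene, and Srsf9 NR_036616 was at 1.05 among pre-pro-B and was listed at 0 among pro-B cells.

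The hnRNPs held the largest summed level of the families, 2442 among pre-pro-B and 3217 among pro-B cells, and 17 of the 20 genes tested lay above 0, or 15 in TPM (median log2 change 0.36, 0.27 in TPM). The highest member by mean level was Hnrnpa2b1, which binds UAG-containing RNA and sorts small RNAs into vesicles. It was at 366 among pre-pro-B and 598 among pro-B cells (log2 change 0.71) and was at rank 44 of all protein-coding genes by mean FPKM. Hnrnpab, a relative of Hnrnpd, was at 356 and 412. Hnrnph1, which binds runs of G, was at 282 and 381, and Hnrnpu, a nuclear scaffold protein, was at 229 and 346. The poly(C) binding protein Hnrnpk was at 201 and 240. All of these abundant hnRNPs were higher in the pro-B library, between 1.16-fold (Hnrnpab) and 1.63-fold (Hnrnpa2b1).

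Hnrnpll showed the widest gap of any member. Its single transcript, NM_144802, was at an FPKM of 6.06 among pre-pro-B and 41.5 among pro-B cells, a 6.85-fold difference (log2 change 2.59). At the nominal 90000000 reads per library, an upper estimate since not all reads align, these levels correspond to about 1699 and 11633 reads on its 3116 bases. Cuffdiff gave 95% limits of 0.621 to 11.5 for the former level and of 8.95 to 73.6 for the latter, which overlap. Hnrnpl, its close relative and a repressor that binds CA repeats, was at 82.9 and 97.3, so that Hnrnpl was 13.7-fold above Hnrnpll in the pre-pro-B library and 2.35-fold above it in the pro-B library. None of the 32-base stretches of the Hnrnpll transcript occurred elsewhere in the mm9 genome.

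Hnrnpul1, a relative of Hnrnpu, was at 118 and 228 (log2 change 0.94), and its longer transcript NM_144922 was at 94.0 and 191. Hnrnpd was at 20.95 and 36.99 (0.79) and Hnrnph3 at 19.9 and 32.01 (0.66). Another 3 hnRNP genes tested lay below 0. Hnrnpc, which binds runs of U and competes with U2af2 at introns, was at 165 and 126 (-0.39), Hnrnpf at 149 and 141 (-0.07), and Hnrnpa1 at 5.90 and 2.68 (-0.91). The remaining hnRNPs, Hnrnpa0, Hnrnpdl, Hnrnph2, Hnrnpm, Hnrnpr and Hnrnpul2, had log2 changes between 0.01 (Hnrnpr) and 0.48 (Hnrnph2).

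Hnrnpa1 and Hnrnpa3 were among the hnRNPs with low levels, as Hnrnpll was in pre-pro-B cells, and unlike Hnrnpll both have many copies in the genome. Hnrnpa1, in other cells among the most abundant hnRNPs, was listed at an FPKM of 5.90 and 2.68, all of it from NM_001039129, the transcript with an additional coding exon of 159 bases, while NM_010447 was listed at 0 in both libraries. Hnrnpa3 was at 9.74 and 21.02 (log2 change 1.04), or 2.16-fold. To describe the copies, each stretch of 32 bases of a member's spliced transcript was looked up in the rest of mm9, since a 97-base read with 2 mismatches still holds an exact run of that length. Of the Hnrnpa1 stretches 88.3% were found elsewhere, with 8 places that held at least 25% of the transcript. For Hnrnpa3 the share was 93.0% with 6 such places, and 16.6% of its stretches occurred at 20 or more other places. Reads from these stretches can be placed at several positions, and the part this plays in the 2 levels was not tested.

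High similarity elsewhere did not go with a low level in every member. Hnrnpf had 95.03% of its stretches elsewhere and 5 copies at an FPKM of 149 and 141, and Hnrnpk had 56.9% and 2 copies at 201 and 240. The Hnrnpk share was taken on an annotated transcript of 2623 bases, longer than its RefSeq transcript of 1978. Over the 48 members other than Hnrnpa1l2-ps2, the 3 with at least 5 copies had mean levels of 4.29 to 145 with a median of 15.4. The 12 with 1 to 4 copies had a median of 71.8 (6.97 to 220), and the 33 with none had a median of 84.9 (0 to 482). These ranges overlap, and whether copies bear on the levels was not tested. Among the members with copies and low levels were also U2af1 (88.0% elsewhere, 3 copies) and Sf3b4 (64.1%, 1 copy). Of the 5 lowest members that passed the minimum, 4 had a copy and Sf3a2 had none.

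**Figure D3:**
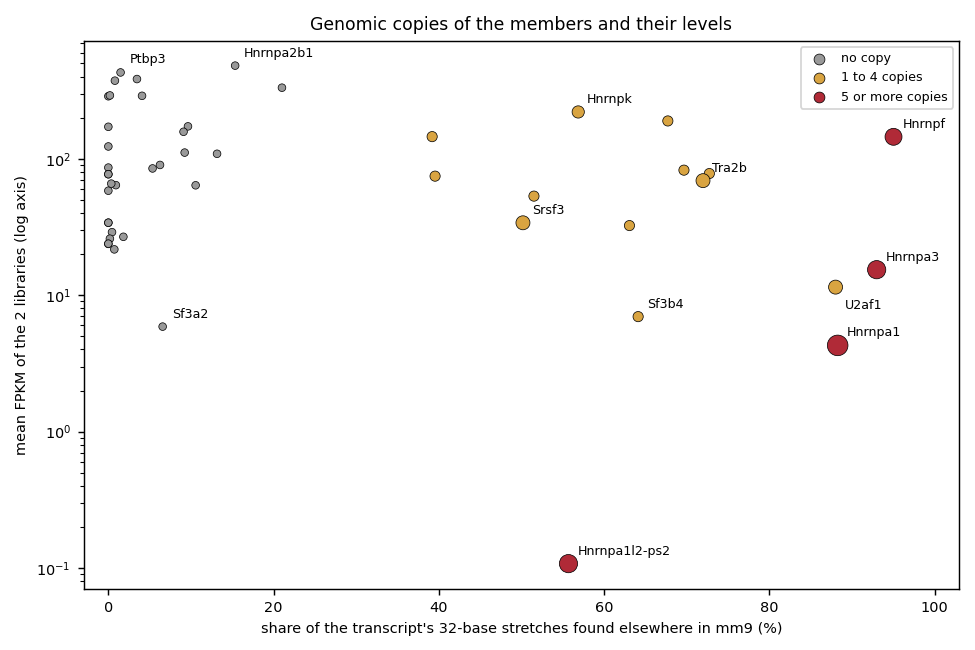
Mean FPKM of the 2 libraries (log axis) against the percent of a member's 32-base stretches that occur elsewhere in mm9, with point colour and size for the number of genomic copies (places holding at least 25% of the transcript). Hnrnpa1, Hnrnpa3 and U2af1 lie at low levels on the right (mean 4.29, 15.4 and 11.5), and Hnrnpf lies on the same side at 145.

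Of the polypyrimidine tract binding proteins, Ptbp3 was lower in pro-B cells, as the one member at least 2-fold lower by the FPKM + 1 rule. Ptbp3, also called Rod1, is the member of this family known for its expression in blood cells. Its summed FPKM was 638 in pre-pro-B cells, the highest level of any member in that library, and 221 in pro-B cells (log2 change -1.53, or 2.89-fold lower). Both of its transcripts went the same way, NM_178164 from 553 to 181 and NM_144904 from 84.8 to 39.7. The 95% limits for NM_178164 were 2.86 to 1311 and 3.56 to 387 and overlap. Of the 32-base stretches of this transcript 1.48% occurred elsewhere in mm9. Ptbp1, the widely expressed repressor, was at 65.4 and 83.8, and Ptbp2, the form best known from neurons, was at 33.4 and 34.6, a log2 change of 0.05 that turns to -0.05 in TPM. Ptbp3 therefore made up most of the Ptbp FPKM in both libraries, and the family sum was 737 among pre-pro-B and 339 among pro-B cells.

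**Figure D4:**
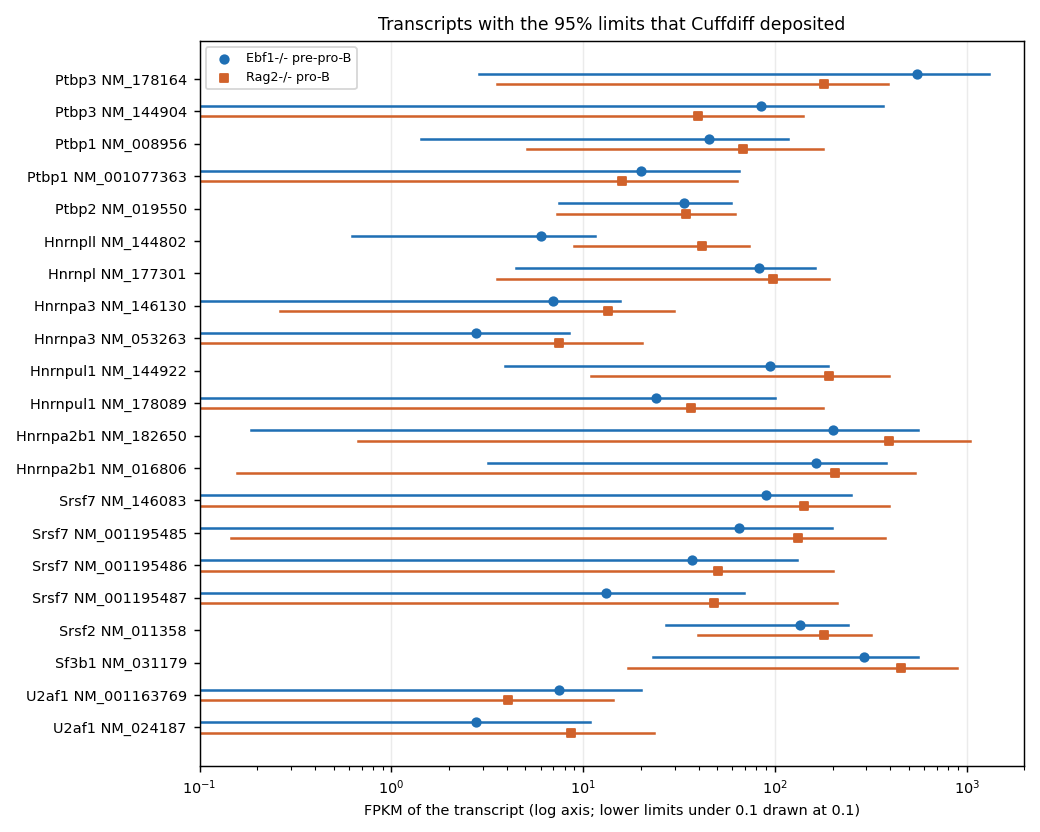
FPKM of single transcripts on a log axis with the 95% limits deposited from Cuffdiff (lower limits under 0.1 are drawn at 0.1), blue circles for pre-pro-B and orange squares for pro-B. The limits of each pair overlap, and the narrowest overlap among the members with a 2-fold gap is that of Hnrnpll (0.621 to 11.5 against 8.95 to 73.6).

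At the 3′ splice site, U2af2, the large subunit that binds the polypyrimidine tract, was at an FPKM of 30.8 and 33.9. U2af1, the small subunit that contacts the AG at the end of the intron, was at 10.2 and 12.7, and its relative U2af1l4 was at 22.4 and 20.9. None of the 3 differed by more than 1.25-fold in the summed level. In SF3A and SF3B, 6 of 9 subunits lay above 0 (median log2 change 0.19, 0.10 in TPM). Sf3b1, the scaffold that encloses the branch point and is mutated in leukemia, was at 292 and 456 (0.64) and was 3.68-fold and 5.03-fold above the next subunit. Sf3b6, which contacts the branch point, was at 79.3 and 90.5, Sf3b3 at 71.9 and 82.3 and Sf3b2 at 71.9 and 82.2. Sf3a3 was at 54.3 and 73.5, Sf3b5 at 29.4 and 38.6 and Sf3a1 at 27.2 and 26.4. The lowest subunits were Sf3b4, at 9.22 and 4.71 (-0.84), and Sf3a2, at 6.48 and 5.29 (-0.25). The mRNA levels of subunits that act in 1 complex ranged over 45.0-fold and 96.7-fold within the libraries.

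Single transcripts were compared by the same 2-fold rule. Of the 74 member transcripts at an FPKM of 1 or more in a library, 7 (9.46%) were higher in pro-B cells, against 14.1% of all transcripts. They were NM_053263 of Hnrnpa3, NM_144802 of Hnrnpll, NM_144922 of Hnrnpul1, NM_001093753 of Srsf11, NM_001195485 and NM_001195487 of Srsf7 and NM_024187 of U2af1. Another 4 (5.41%) were lower, against 21.4% of all transcripts, and these were both transcripts of Ptbp3, NM_001170982 of Hnrnpc and NM_009159 of Srsf5. In TPM, the counts were 5 higher and 7 lower, and after division by the median ratio of all genes they were 8 and 2. Shares over all transcripts were not taken under these scalings. The 95% limits of the libraries did not overlap for 0 of the 74 transcripts in either direction, where 1.4% of all transcripts were higher and 2.99% were lower without overlap. For these limits the spread had been estimated with both libraries taken as 1 condition, since neither has a replicate.

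Which transcript of a gene led was compared in the 18 members with several protein-coding transcripts and a summed FPKM of at least 1 in both libraries. The leading transcript differed between the libraries in 2 of them (11.1%), U2af1 and Srsf5, against 17% of all such genes. A share moved by 20 percentage points or more in 1 of them (5.56%), U2af1, against 25.8% of all such genes. In 16 of the 18 members the leading transcript was thus the same one in both libraries.

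The U2af1 transcripts NM_001163769 and NM_024187 have equal lengths of 907 bases, as the exchange of the 2 exons printed above would give, though the table does not say which of them carries which exon. NM_001163769 was at an FPKM of 7.44 among pre-pro-B and 4.04 among pro-B cells, and NM_024187 was at 2.76 and 8.68. The share of NM_001163769 was 72.9% and 31.8%, a move of 41.2 points, while the sum of the gene changed from 10.2 to 12.7. At the nominal depth the transcripts rest on about 608 and 330 reads and on about 225 and 708 reads, and the reads that tell them apart are those over the exchanged exon. The limits of every one of these values begin at 0, and 88.0% of the 32-base stretches of this transcript occur elsewhere in the genome.

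Srsf5 NM_009159 was at 94.4 among pre-pro-B and 46.3 among pro-B cells, and NM_001079695 was at 72.2 and 86.1. Their shares were 45.9% and 26.7% for the former and 35.1% and 49.7% for the latter. Other shares moved by less. Srsf10 NM_001080387 held 62.4% among pre-pro-B and 79.6% among pro-B cells, and Hnrnpc NM_016884 held 49.9% and 65.9%. These genes have 1 copy each, with 69.7% (Srsf10) and 39.2% (Hnrnpc) of stretches found elsewhere. Srsf11 NM_001093753, a minor form, held 3.15% and 15.4%, with limits that began at 0 in both libraries (upper limits 10.5 and 40.7). For the Ptbp1 transcript NM_001077363 the limits also began at 0 in both libraries (upper limits 65.2 and 63.6). This transcript, with the 78-base exon printed above, held 30.6% and 19.1%, at an FPKM of 20.03 and 16. The form without that exon was at 45.3 and 67.8. That exon lies in the linker between RNA recognition motifs of Ptbp1, and its skipping is known to alter the repressive activity of the protein.

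In Hnrnpd the transcript shares moved by less than 2 points although the level moved. The gene has 4 transcripts, whose lengths differ by the 57-base exon printed above and by a further coding exon of 147 bases. Its summed level was 1.77-fold higher in pro-B cells, yet the 57-base exon was carried by 58.0% of the FPKM of the pair NM_001077265 and NM_001077266 among pre-pro-B and 57.3% among pro-B cells. For the 147-base exon the shares within the pair NM_001077265 and NM_007516 were 81.9% and 80.7%. In Hnrnpab, Hnrnpm and Hnrnpf, levels and shares alike moved little. Hnrnpab carried its coding exon of 141 bases at 29.0% and 28.4%. The share of the leading Hnrnpm transcript was 66.4% and 65.9%, and that of Hnrnpf was 69.97% and 69.4%.

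**Figure D5:**
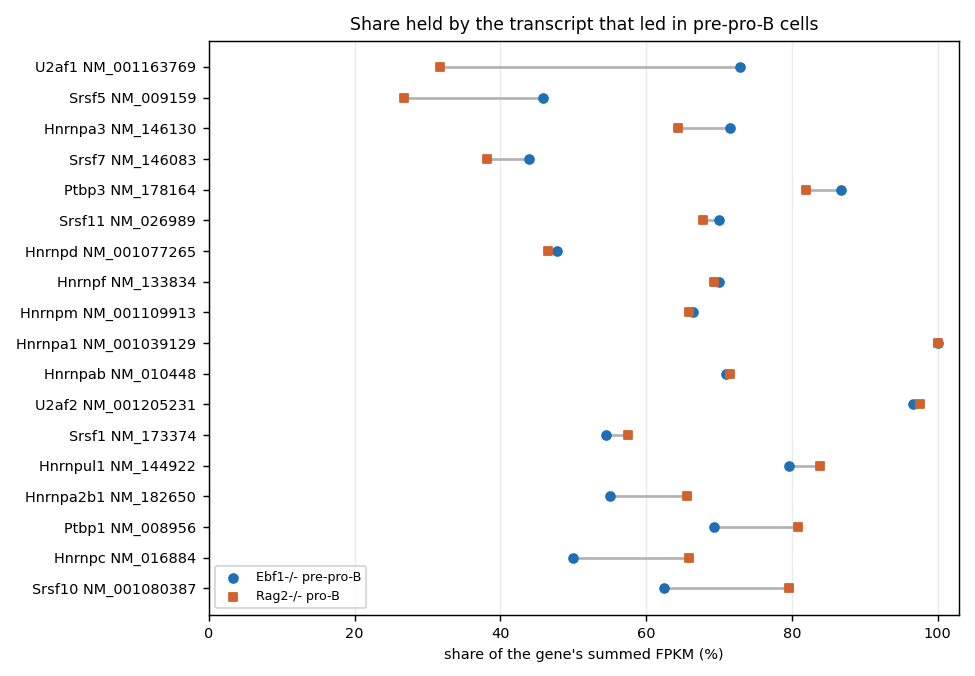
Share of a gene's summed FPKM (%) held by the transcript that led in pre-pro-B cells, for the 18 members with several transcripts, with blue circles for pre-pro-B and orange squares for pro-B. U2af1 moves from 72.9% to 31.8% and Srsf5 from 45.9% to 26.7%, and Hnrnpd, Hnrnpm, Hnrnpf and Hnrnpab stay within 2 points.

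The other genes of the splicing machinery were read from 5 lists with 95 genes, of which 78 reached an FPKM of 1. Of these 78, 2 were higher in pro-B cells by the 2-fold rule and 2 lower, where 12.2% and 19.1% of all genes tested were. Their median log2 change was 0.15. A list of snRNP proteins, which holds the Sm proteins that form the ring of the snRNPs, U1-specific proteins (Snrnp70, Snrpa and Snrpc) and the U2-specific proteins Snrpa1 and Snrpb2, had the highest list median (0.53, with 10 of 12 above 0 and none 2-fold apart), led by Snrpa1 (47.5 and 91.0), Snrpb (41.6 and 76.3) and Snrpd1 (84.8 and 151). Proteins of the U4/U6.U5 tri-snRNP had a median of 0.29 (12 of 15 above 0, none 2-fold apart), with Txnl4a at 82.9 and 45.8, Usp39 at 26.2 and 46.9 and Snrnp40 at 28.5 and 49.3. The Prp19 complex had a median of 0.17 (6 of 9 above 0, none 2-fold apart), with Isy1 at 25.3 and 42.6, Crnkl1 at 39.5 and 60.2 and Xab2 at 30.0 and 21.4.

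On the deposited scale, the kinases that phosphorylate SR proteins were the one list with a median below 0 (-0.17, with 3 of 9 above 0). That median was near the one of all genes tested (-0.14). Srpk3 was at an FPKM of 4.87 and 0.576 and was the 1 of 9 kinases at least 2-fold apart, where 19.1% of all genes tested were lower. Clk4 was at 83.9 and 62.5 and Dyrk1a at 39.2 and 47.4. The other RNA-binding splicing regulators had a median of 0.08 (22 of 33 above 0). By the 2-fold rule 2 of the 33 were higher and 1 was lower, where 12.2% and 19.1% of all genes tested were. Mbnl3, of the muscleblind family, was at 3.06 and 15.1, its relative Mbnl2 was at 93.8 and 36.9, and Rbm17, a U2-associated factor, was at 44.0 and 106.

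The labels were checked by markers. All 9 B lineage markers were at least 2-fold higher in the pro-B library (summed FPKM 95.3 and 2384) and all 4 progenitor markers were lower (958 and 3.59). Myeloid, T lineage and stromal markers summed to 60.99, 76.2 and 18.2 among pre-pro-B and to 6.52, 3.13 and 7.74 among pro-B cells, 3 of 5, 3 of 4 and 2 of 7 of them reaching an FPKM of 1 in the former library and 1 of 5, 1 of 4 and 3 of 7 in the latter. The stromal sum of pre-pro-B cells came mostly from Pdgfrb (15.9 and 0.377), while Col1a2 (0.707 and 2.82), Sparc (1.13 and 2.81), Col3a1 (0.242 and 1.13) and Col1a1 (0.207 and 0.522) were higher in pro-B cells, and Dcn was listed at 0 in both. The 3 erythroid markers listed were below 1. Among pre-pro-B cells the myeloid sum came mostly from Mpo (35.7) and Itgam (19.7), with Csf1r at 0.170 and Elane listed at 0. The T lineage sum there came mostly from Lck (38.0) and Cd3g (36.8), with Cd3e at 0.239. Ebf1 itself was at 64.03 and 273 and Rag2 at 34.5 and 22.9, so that neither was absent from the cells that lack the protein, and the table does not separate the deleted part of either gene. Bulk RNA does not tell whether the myeloid, T lineage and stromal markers came from the named cells themselves or from other cells. The part of any other cells in the levels of the splicing regulators was not tested.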

How the data were processed

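Total RNA depleted of rRNA was made into strand-specific libraries and sequenced to about 90000000 single-end reads of 97 bases per sample, per the labels. The authors aligned reads to mm9 with TopHat (1.5 in the submitters' processing notes) and estimated FPKM per RefSeq transcript, with 95% limits, with Cuffdiff 2.1.1 (classic FPKM, multi-read and bias correction). The deposited limits bound this signal on the FPKM scale. They came from the blind setting of Cuffdiff, in which the authors' libraries are treated as 1 condition to estimate the spread. The deposited FPKM values are normalised to transcript length and mapped fragments, and no read counts were used here. Total RNA holds unspliced RNA and the estimate splits shared reads between transcripts, so transcript shares are less certain than gene sums. A second deposited table holds the authors' own comparison of the libraries. It was not used, nor were its 2 columns of values per sample.

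Transcripts were named through the RefSeq table (GRCm38.p6, used for names): 26169 of 26580 NM_ accessions matched, 161 rows took the single symbol of their locus (among them NM_026989 of Srsf11) and 256 rows stayed unnamed. FPKM were summed per gene. The log2 change used a pseudocount of 1, and genes or transcripts below an FPKM of 1 in both libraries were left out of counts. Exons were matched in GENCODE vM1 where exactly 1 cassette exon had the length by which transcripts differ (at least 10 bases). For genomic copies, the annotated transcript nearest in length to the leading RefSeq transcript was used. Annotated and RefSeq lengths were unlike in some members, among them Hnrnpa1 (1122 and 1918 bases), Hnrnpd (4320 and 6810), Hnrnpk (2623 and 1978), Tra2b (1590 and 2135) and Hnrnpul1 (3424 and 2873). Hits outside the locus were joined across gaps of up to 1000 bases, and a place with at least 25% of the 32-base stretches was a copy. With 1 library per group no test was made. Named with values are the members at least 2-fold apart, the 5 highest, the 10 with the largest log2 change, those that switch their leading transcript or move a share by 20 points, those listed at 0, Ptbp1, Ptbp2, Ptbp3, Hnrnpll, Hnrnpl, U2af1, Sf3b1 and Srsf2, and of each further list the 3 with the largest log2 change. Other members were named after their values were seen. The members and lists were chosen with earlier results of these data known. Scripts were checked on simulated data and ran in Python 3.11.15 with numpy 2.4.6 and pandas 2.3.3, and figures were drawn with matplotlib 3.10.9.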

Additional observations from a re-analysis of the deposited data

How the results depend on the processing

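Alternatives changed the pseudocount, the filter on low values, the scaling, the unit of count and, chosen after seeing the data, the naming of rows and a scaling to genes at an FPKM of 50 or more. With 1 library per group no library could be left out. No paired analysis was possible because each group holds 1 sample and no test was made. Member genes 2-fold lower in pro-B cells numbered 1, and 2 with a pseudocount of 0.1 or none and 3 in TPM. Those higher numbered 2, and 1 in TPM or scaled to genes at an FPKM of 50 or more. Under the latter scaling 1184 of 10516 genes were higher and 2169 lower. The counts over all genes in TPM and with the median ratio of all genes are given above. None were taken for the other alternatives or over all transcripts. In TPM the added 1 and the minimum of 1 also weigh less. Member transcripts that were lower numbered 4, and 7 in TPM and 2 with the median ratio of all genes. Other splicing genes that were lower numbered 2, and 1 with an FPKM of at least 1 in both libraries. Those higher numbered 2, and 6 with the median ratio. The median log2 change of the members stayed between 0.19 and 0.37. Members with limits that do not overlap (0) and members that switch their leading transcript (2) were unchanged under each alternative run for them. Of 152 values of 19 named members under these alternatives, 151 moved by less than 1.5-fold. The exception was U2af1, whose log2 change was 0.29 from the sum and -0.74 from its most abundant transcript, NM_001163769. That transcript led only narrowly over both libraries together, and NM_024187 had a log2 change of 1.36. Changes of sign within 1.5-fold were those of Srsf5, from -0.25 to 0.25 with its most abundant transcript, and of Ptbp2, from 0.05 to -0.05 in TPM or scaled to genes at an FPKM of 50 or more.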

Other observations

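Ptprc and Pkm, whose alternative exons are known targets of Hnrnpll and of the Ptbp and hnRNP A proteins, were looked up after the values of the members had been seen. Ptprc, which encodes CD45, had a level of 269 among pre-pro-B and 0.917 among pro-B cells (summed FPKM). In pre-pro-B cells NM_011210 held 60.9% and NM_001111316 held 39.1% of it, and NM_001268286 was listed at 0. In pro-B cells NM_001268286 held 84.6%, though at an FPKM of 0.776, so that shares there rest on a level near the minimum used. The limits of NM_011210 did not overlap (0.647 to 422 and 0 to 0), but its pro-B value of 7.45e-05 lay above its own upper limit. Those of NM_001111316 overlapped (0.0242 to 306 and 0 to 0.742). Pkm, a glycolytic enzyme with a pair of exclusive exons, had 175 and 317, and NM_001253883 held 56.0% and 60.9%. The limits of both Pkm transcripts overlapped between the libraries. CD45 is known to be present on pro-B cells, for which its B220 form is a common marker, so the low Ptprc value is not read as a loss of the gene's expression. Its cause was not tested.

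Other transcripts share the loci of Hnrnpa1 and Hnrnpa3. Gm5643, a transcript that the table places at the Hnrnpa1 locus, was at 1.33 among pre-pro-B and 1.80 among pro-B cells, while Gm10052 at the same locus and Gm6793 at the Hnrnpa3 locus were listed at 0.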
